A study of Mus musculus with 18 samples.

Results

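The genes described here encode the interleukin-2 receptor and its proximal signalling chain in mouse CD4+ T cells. They are the receptor chains Il2ra, Il2rb and Il2rg, the cytokines Il2 and Il21, the kinases Jak1 and Jak3, and the transcription factors Stat5a and Stat5b. They were chosen by name, and all 9 were found among 15698 named genes of the deposited table. Messenger RNA was read by 3′ sequencing (QuantSeq) in 18 libraries, 3 for each of 6 groups. In 4 groups, CD4+ T cells with the transgenic 5CC7 T cell receptor had spent 4 days with the fibroblast line P13.9, which presented pPCC peptide at 0.01, 0.1, 1.0 or 10 µM. The other groups are naive CD4+ T cells from spleen and lymph node, and P13.9 cells alone. The question behind the series is what receptor signal strength does to helper T cell fate. The labels do not state whether the naive group also carried the transgene, and the P13.9 cells are 1 line. Mouse age and the separateness of the 3 samples of a group (mice or cultures) are not stated, so every p-value reflects only how far these samples spread.

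Interleukin-2 is a growth factor that activated T cells make and respond to. Its receptor has an alpha chain (Il2ra, CD25) that raises affinity, and beta and common gamma chains (Il2rb, Il2rg) that carry the signal. The beta chain also serves interleukin-15, and the common gamma chain also serves interleukins 4, 7, 9, 15 and 21. Jak1 binds the beta chain and Jak3 the common gamma chain, and both kinases lead to phosphorylation of Stat5a and Stat5b, which enter the nucleus and switch on genes such as Cish, Socs2 and Il2ra itself. Phosphorylation is not visible in messenger RNA.

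The libraries differed widely in depth. Reads assigned to named genes numbered 27789 to 97757 in the naive libraries, against 156941 to 733009 in the activated and 201627 to 352001 in the P13.9 libraries. A single read equalled 2.17 to 6.55 normalized units in naive cells and 0.167 to 0.872 in activated cells. Over genes, naive replicates correlated at 0.640 to 0.773 and replicates of an activated group at 0.911 to 0.974. The 9 T cell markers (such as Cd3d, Cd3e and Lck) were all detected in each T cell group. Cd8a and Cd8b1 were at 0 in naive cells, where a count of 0 still allows a level of up to 4.24 (exact 95% interval, counting error only). In the activated groups Cd8a averaged at most 0.400 and Cd8b1 at most 1.10. Ighm, the 1 B cell marker of 5 in the table, averaged 9.99 in naive cells and 4.93 to 16.4 in the activated groups. The summed level of 6 myeloid markers was at most 8.43 in any activated library, against 50.8 to 82.3 in naive libraries, and that of 3 natural killer cell markers was at most 4.6, against 13.1 to 39.0. Of 4 regulatory T cell markers only Ikzf2 averaged lower in the activated groups, at most 0.848 against 37.5 in naive cells. Ctla4 averaged 5.26 to 15 against 3.63 and Tnfrsf18 32.0 to 50.2 against 29.9, and the list with Il2ra summed to 107 to 156 in activated and 75.8 to 129 in naive libraries. Levels are normalized values, given as mean ± SD with n = 3. Log2 changes are on the log2(value + 1) scale with the standard error of the limma fit, and a gene was called at a Benjamini-Hochberg adjusted p below 0.05.

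Il2ra, Il2rg and Il2 have promoters in a RefSeq table of GRCm38.p6, the assembly also called mm10. They are printed to show the letters upstream of a pair of receptor chains and the cytokine, and each run covers 250 bases before the annotated start, 5′ to 3′ on the gene's strand. Capitals mark matches, on either strand, to GGAAA, the core bound by NFAT factors, and to GGAAG, a core bound by ETS factors, and no match overlapped another.
Il2ra (chr2:11642542-11642791, + strand): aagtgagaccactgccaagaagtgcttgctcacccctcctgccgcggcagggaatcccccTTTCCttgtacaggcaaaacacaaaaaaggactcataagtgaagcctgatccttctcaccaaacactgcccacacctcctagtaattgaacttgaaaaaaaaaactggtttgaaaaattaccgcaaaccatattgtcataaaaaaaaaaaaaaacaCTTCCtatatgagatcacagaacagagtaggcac
Il2rg (chrX:101268256-101268505, - strand): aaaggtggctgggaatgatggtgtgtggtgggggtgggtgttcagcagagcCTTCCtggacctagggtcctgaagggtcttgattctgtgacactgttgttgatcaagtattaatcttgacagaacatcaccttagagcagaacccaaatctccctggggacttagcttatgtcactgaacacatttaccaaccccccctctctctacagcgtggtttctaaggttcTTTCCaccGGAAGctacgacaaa
Il2 (chr3:37125955-37126204, - strand): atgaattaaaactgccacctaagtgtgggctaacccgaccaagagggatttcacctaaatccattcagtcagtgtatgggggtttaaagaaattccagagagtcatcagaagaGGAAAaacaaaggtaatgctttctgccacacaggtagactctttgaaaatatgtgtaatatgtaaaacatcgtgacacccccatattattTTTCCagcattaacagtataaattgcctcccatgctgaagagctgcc
In Il2 the GGAAA matches began 137 and 47 bases before the start, and no GGAAG was present. Il2ra held 1 match to each core, at 190 and 34 bases, and Il2rg held 1 GGAAA and 2 GGAAG. Of 32851 promoters of this length, 55.6% held GGAAA and 64.1% held GGAAG. The STAT motif TTCNNNGAA, found in 7.02% of promoters, matched none of the 10 windows listed for 8 of the 9 members. A match is a run of letters and not evidence of binding, and Il2rb had no entry in the table.

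The receptor alpha chain was higher after activation, and its mean was lower at each higher dose. Il2ra (chr2:11642792-11693194) had values of 86.8, 86.9 and 83.0 at 0.01 µM and of 74.1, 77.6 and 77.5 at 0.1 µM. It had 67.2, 68.5 and 67.9 at 1.0 µM and 65.5, 69.2 and 57.7 at 10 µM. In naive cells the values were 19.7, 50.8 and 13.0, from 3, 13 and 6 reads. All 12 activated libraries lay above all 3 naive ones, and naive 2 stood well above the other naive libraries. Against naive cells, Il2ra rose by 1.59 ± 0.25 on the log2 scale (limma, adjusted p = 6.1e-05, n = 12 against 3). On recovered reads the change was 2.18 with edgeR and 2.11 with DESeq2, whose scaling moved the median over all genes to 0.37 and 0.29, against −0.02 in limma.

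Across doses, Il2ra means were 85.6 ± 2.23 at 0.01 µM, 76.4 ± 1.98 at 0.1 µM, 67.9 ± 0.677 at 1.0 and 64.1 ± 5.89 at 10 µM. The ranges of the 3 lower doses did not overlap one another, and the 10 µM range overlapped only that at 1.0 µM. In the fit of all 15 T cell libraries, where the activated groups share a spread with the noisier naive cells, the slope of −0.14 ± 0.10 per 10-fold dose was not called (adjusted p = 0.514, 95% interval −0.36 to 0.07). In a fit of the 12 activated libraries alone, the same slope had an adjusted p of 0.00393. That fit called 14.2% of all genes as lower with dose, against 5.13% in the fit of 15. The call for Il2ra thus depended on which libraries set the spread. When the share of P13.9 transcripts, the fibroblasts' own RNA in each library, was subtracted and the rest rescaled, Il2ra means were 131 ± 19.1 at 0.01 µM, 83.9 ± 5.07 at 0.1 µM, 71.7 ± 0.785 at 1.0 and 65.2 ± 6.29 at 10 µM. In the fit of 15 libraries the slope was then −0.32 and not called (limma, adjusted p = 0.0936).

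In the fit of 15 libraries, the receptor beta chain was the 1 member called by its slope with dose. Il2rb (chr15:78479256-78511621) had values of 80.6, 79.8 and 64.1 at 0.01 µM and of 205, 121 and 134 at 0.1 µM. It had 132, 243 and 176 at 1.0 µM and 159, 184 and 174 at 10 µM. In naive cells the values were 85.2, 62.5 and 54.1. The 0.01 µM and naive ranges overlapped, and every library at 0.1 µM or above was higher than every library of those groups. Over the 4 doses, Il2rb was 1.03 ± 0.19 above naive cells on the log2 scale (limma, adjusted p = 0.000244), and 1.81 with edgeR and 1.71 with DESeq2 (adjusted p = 2e-07 and 1.8e-09).

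Il2rb rose by 0.38 ± 0.08 log2 units per 10-fold dose (limma, adjusted p = 0.00682, n = 12 libraries). It was the 1 member of the 7 tested that was called, where 1.39% of 7264 genes were called as higher and 5.13% as lower with dose. Il2rb was 0.99 ± 0.24 higher at 0.1 than at 0.01 µM (adjusted p = 0.029), with 2.18% of genes called higher. That call was lost with the letters of the libraries (A to C) as a replicate block (adjusted p = 0.0625) and without any of 5 of its 6 libraries, all but 0.1 µM B (0.0534 to 0.125). It was 1.25 ± 0.24 higher at 1.0 than at 0.01 µM (adjusted p = 0.00867), with 1.64% called higher, a call lost without 0.01 µM C (0.0606). It was 1.20 ± 0.24 higher at 10 than at 0.01 µM (adjusted p = 0.00642), with 1.9% called higher. Above 0.1 µM no further change of Il2rb was called. The difference was 0.25 for 1.0 against 0.1 µM (95% interval −0.26 to 0.77) and −0.05 for 10 against 1.0 µM (−0.56 to 0.46).

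Other values moved with Il2rb. The median summed level of the 9 T cell markers was 266 at 0.01 µM, 432 at 0.1 µM, 467 at 1.0 and 440 at 10 µM. P13.9 transcripts, taken from 5 fibroblast genes, relative to P13.9 cells stood at 34.1 ± 10.7% at 0.01 µM, 8.91 ± 3.4% at 0.1 µM, 5.40 ± 1.08% at 1.0 and 1.71 ± 0.713% at 10 µM. In naive cells the same estimate was 4.75 ± 0.559%, near the 1.0 µM and above the 10 µM value, and this was not removed. The 5 genes also differed: at 0.01 µM Fn1 averaged 33.7 and Cald1 32.8, against 277 and 65.7 in P13.9 cells. P13.9 cells themselves held little Il2rb (2.33 ± 1.63). When the P13.9 share was subtracted and the rest rescaled, Il2rb means were 113 ± 5.26 at 0.01 µM, 167 ± 43.5 at 0.1 µM, 194 ± 58.7 at 1.0 and 175 ± 14.1 at 10 µM. The slope was then 0.21 and not called (adjusted p = 0.128), and none of the 3 comparisons with 0.01 µM was called (adjusted p = 0.100 to 0.201). In bulk RNA, fewer T cells in a sample and less Il2rb per T cell cannot be told apart. The labels' sample numbers form 2 runs, 1 holding 10 and 0.1 µM and the other all remaining groups. Within them the Il2rb difference was 0.20 ± 0.24 for 10 against 0.1 µM (adjusted p = 1, with 0.0964% of genes called) and 1.25 higher at 1.0 than at 0.01 µM, as above.

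The common gamma chain kept a narrow range in all T cell groups. Il2rg (chrX:101264385-101268255) averaged 52.6 ± 10.2 at 0.01 µM, 61.9 ± 6.43 at 0.1 µM, 63.5 ± 4.33 at 1.0 and 56.2 ± 2.82 at 10 µM, and 52.9 ± 6.44 in naive cells. Activated and naive ranges overlapped except at 1.0 µM. The log2 change against naive cells was 0.14 ± 0.14 (limma, adjusted p = 0.38, 95% interval −0.15 to 0.43), and the slope with dose was 0.04 (95% interval −0.08 to 0.15). The naive comparison depended on scaling. On recovered reads edgeR gave Il2rg 0.79 (adjusted p = 0.00272) and DESeq2 gave 0.71 (adjusted p = 0.00958), with the shift of all genes given above. After subtraction of the P13.9 share it was 0.35 (adjusted p = 0.0362). The means at the doses were then 79.1 ± 2.96 at 0.01 µM, 68.0 ± 8.70 at 0.1 µM, 67.1 ± 5.31 at 1.0 and 57.2 ± 3.05 at 10 µM, and the slope turned to −0.14 and was not called (adjusted p = 0.147).

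**Figure D1:**
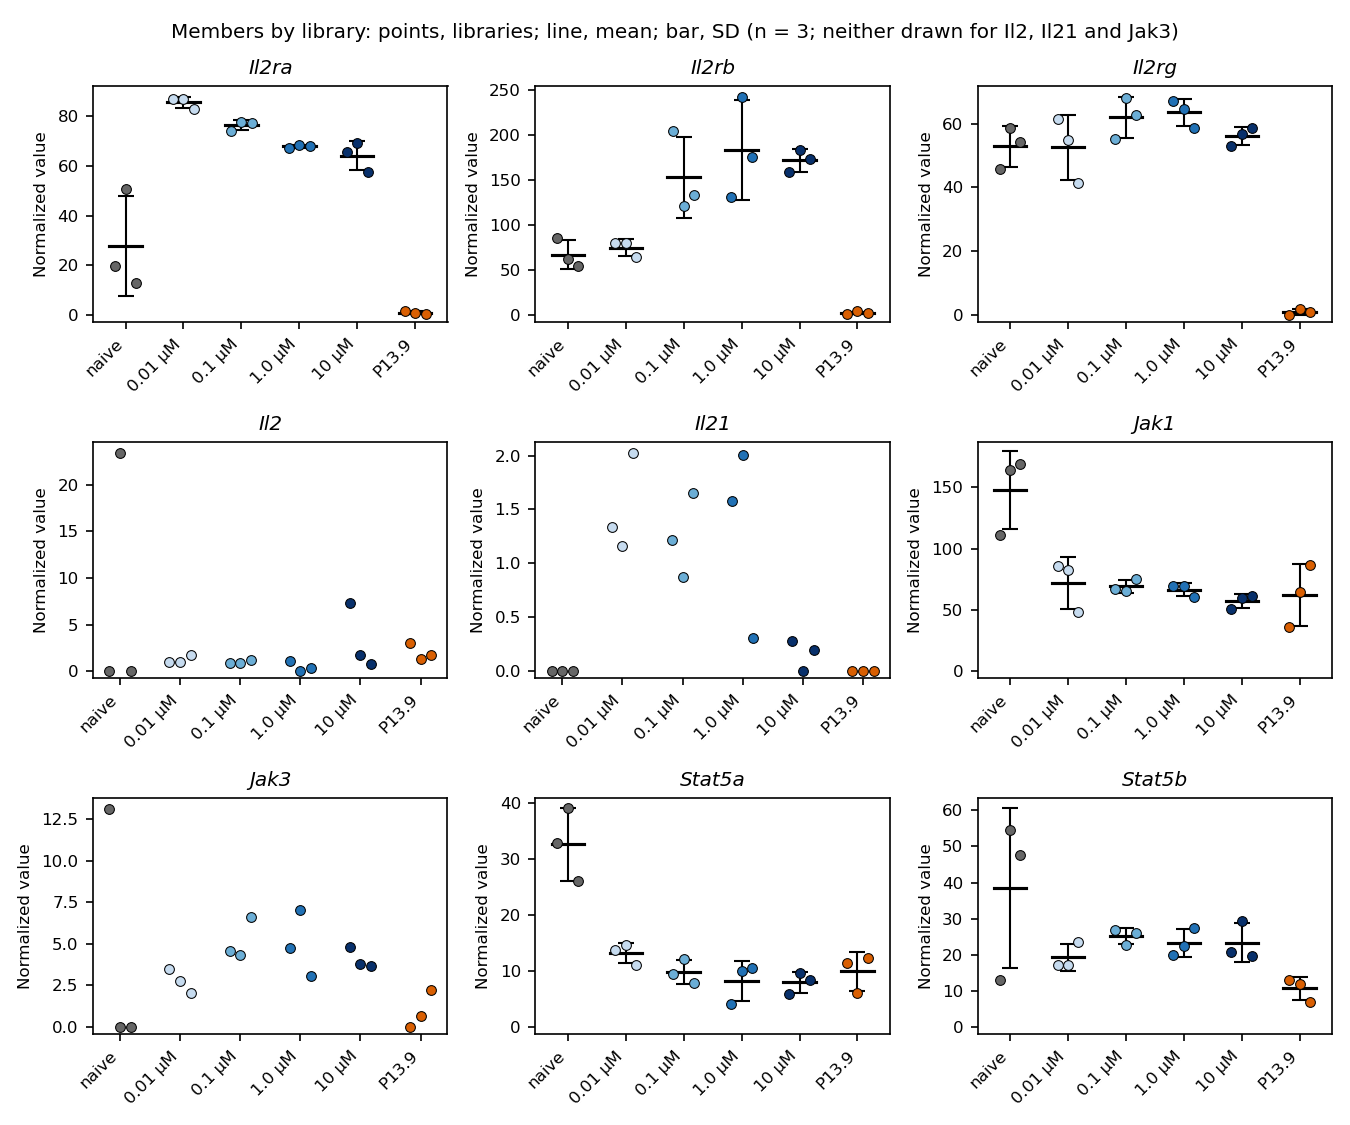
Normalized value (vertical axes, linear) of the 9 members in each library, for naive cells, the 4 peptide doses in µM and P13.9 cells from left to right. Points are libraries, lines are means and bars are SDs with n = 3, both left out for Il2, Il21 and Jak3; Il2ra is highest at 0.01 µM (mean 85.6), Il2rb lies at 121 or above in every library from 0.1 µM up, and the receptor chains are near 0 in P13.9 cells.

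Ratios within a library show the receptor chains shifting against each other, free of any scaling shared by both genes. The zero of such a ratio has no meaning across genes, so it is read only between groups. The log2 ratio of Il2rb to Il2ra was −0.20 ± 0.15 at 0.01 µM, 0.96 ± 0.44 at 0.1 µM, 1.38 ± 0.42 at 1.0 and 1.41 ± 0.16 at 10 µM. Every library at 0.01 µM lay below every library at the other doses. Naive cells had 1.44 ± 1.00, a range that held the 3 higher doses' means and not the 0.01 µM one. The slope was 0.53 per 10-fold dose (permutation test with 100000 resamples, two-sided, p = 0.00104, adjusted p = 0.00312 over 3 ratios, n = 12). Subtraction of the P13.9 share rescales both genes alike and takes only 0.351% of Il2ra and 1.06% of Il2rb at 0.01 µM. It could thus hardly move this ratio, and the slope of 0.53 after it (permutation p = 0.00104) is no separate check. Within the runs of sample numbers the difference in this ratio was 0.46 for 10 against 0.1 µM (exact permutation p = 0.3) and 1.58 for 1.0 against 0.01 µM (exact permutation p = 0.1, the smallest that 3 against 3 allows).

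The ratio of Il2rg to Il2ra showed a smaller slope of 0.18 (permutation p = 0.0054, adjusted p = 0.0081). It was −0.71 ± 0.25 at 0.01 µM, −0.30 ± 0.12 at 0.1 µM, −0.10 ± 0.10 at 1.0 and −0.18 ± 0.18 at 10 µM. Every library at 0.01 µM lay below every library at the higher doses here too. Within the runs the difference was 0.12 for 10 against 0.1 µM (exact permutation p = 0.4) and 0.61 for 1.0 against 0.01 µM (exact permutation p = 0.1). Both signalling chains thus stood lowest against the alpha chain at the lowest dose.

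**Figure D2:**
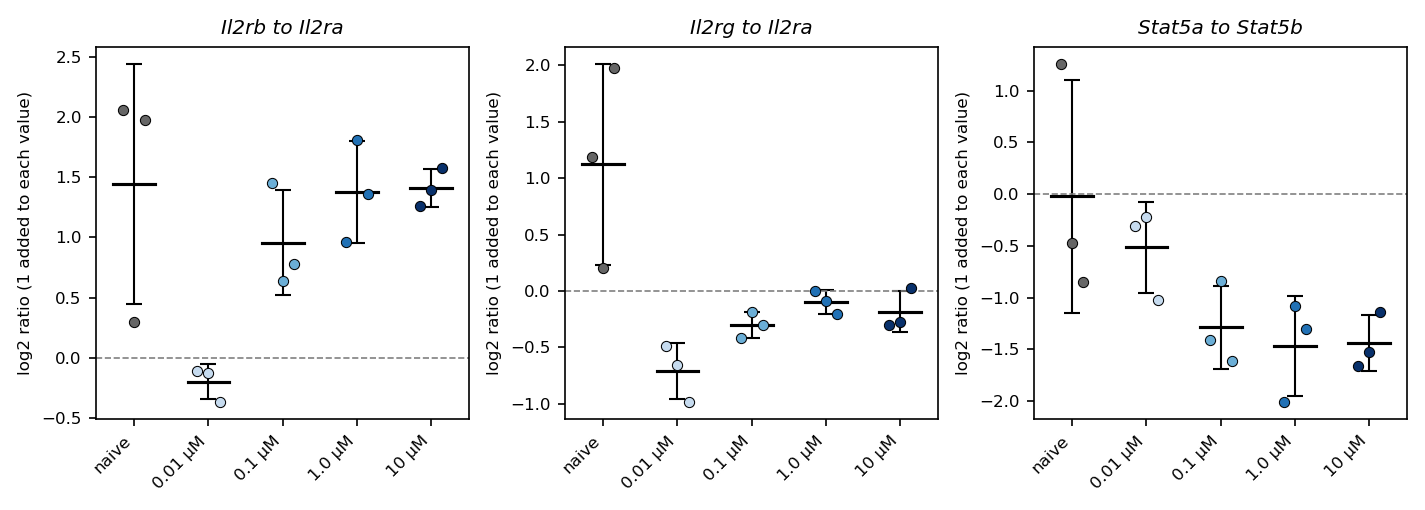
Log2 ratio of a pair of members within each library (vertical axes, 1 added to each value), for naive cells and the 4 doses in µM from left to right. Points are libraries, lines are means and bars are SDs with n = 3; the Il2rb to Il2ra ratio averages −0.20 at 0.01 µM and 1.41 at 10 µM, and the Stat5a to Stat5b ratio averages −0.52 at 0.01 µM and −1.44 at 10 µM.

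The cytokine genes were close to the detection limit at day 4. Il2 (chr3:37120713-37125954) and Il21 (chr3:37222759-37232636) lie 96804 bases apart on chromosome 3, and neither reached a value of 5 in 3 libraries, so neither entered the tests. Il2 had 35 reads at 10 µM, with values of 7.34, 1.71 and 0.766, and 26 of those reads came from 10 µM A. It had 15 reads at 0.01 µM, 7 at 0.1 µM and 3 at 1.0 µM, and its values there ran from 0 to 1.69. In naive cells all 6 reads lay in naive 2, with a value of 23.4 there and 0 in the others, and that library was also the highest naive one for Il2ra. P13.9 cells, which are not T cells, had Il2 values of 3.07, 1.34 and 1.77, so the activated values other than 10 µM A lay below the P13.9 range or inside it. At 0.01 µM, P13.9 transcripts could hold 58.2% of the Il2 value by the share estimated from fibroblast genes.

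Per unit of depth, Il2 was 2.65 times as high at 10 as at 0.01 µM (exact 95% interval 1.41 to 5.22, counting error only). Without 10 µM A, the 10 µM mean was 1.24, against 1.21 at 0.01 µM, so 1 library carried that difference. Il21, a cytokine of follicular helper cells that signals through the common gamma chain, had values of 1.16 to 2.02 at 0.01 µM, 0.872 to 1.66 at 0.1 µM, 0.307 to 2.01 at 1.0 and 0 to 0.282 at 10 µM. The 10 µM libraries held 2 reads in all and lay below every other activated library. The ratio of 10 to 0.01 µM was 0.119 (exact 95% interval 0.0135 to 0.495, counting error only), and without a filter on low values limma gave adjusted p = 0.0675. Il21 was at 0 in naive and P13.9 cells. In naive cells a count of 0 allows a level of up to 4.24 (exact 95% interval, counting error only), above every activated value.

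Of the kinases, Jak1 was lower after activation and Jak3 was too thinly covered to place. Jak1 (chr4:101151974-101265282), which serves many cytokine receptors, had values of 47.9 to 85.7 over the 12 activated libraries. The naive values were 111, 164 and 169. The ranges did not overlap, and Jak1 fell by 1.14 ± 0.17 log2 units (limma, adjusted p = 3.6e-05). The change of Jak1 was −0.53 with edgeR and −0.62 with DESeq2 (adjusted p = 0.0166 and 0.00493). The part of the myeloid and natural killer markers of naive libraries in this fall, in that of Stat5a and in the naive Il2rb level was not tested. Jak1 means were 72.0 ± 20.9 at 0.01 µM, 69.1 ± 5.12 at 0.1 µM, 66.6 ± 5.21 at 1.0 and 57.4 ± 5.52 at 10 µM, and the slope of −0.09 was not called (95% interval −0.24 to 0.06, adjusted p = 0.556). Jak3 (chr8:71676383-71690577), the kinase restricted to the common gamma chain, had 36 to 47 reads in each activated group and 2 in naive cells, both in naive 1. It passed the filter through 3 libraries, and its change against naive cells was 1.07 with a wide 95% interval of −0.18 to 2.32 (adjusted p = 0.125). Jak3 means were 2.77 at 0.01 µM, 5.19 at 0.1 µM, 4.94 at 1.0 and 4.07 at 10 µM, with overlapping ranges except that all 0.01 µM libraries lay below those at 0.1 and 10 µM.

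The paired STAT5 genes differed in how firmly they could be placed. Stat5b (chr11:100780731-100859004) and Stat5a (chr11:100859351-100885169) lie 346 bases apart and encode near-identical proteins. How reads matching both genes were counted is not given in any source used, so their split is uncertain. Stat5a had values of 4.20 to 14.6 over the activated libraries. In naive cells it had 32.8, 39.0 and 26.0, all above the activated range, and it fell by 1.68 ± 0.26 (limma, adjusted p = 4.8e-05). With edgeR it was −1.02 and with DESeq2 −1.12 (adjusted p = 0.013 and 0.00367).

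Stat5b had activated values of 17.2 to 29.5. Its naive values were 13.1, 54.7 and 47.6, so 2 naive libraries lay above and naive 1, with 2 reads, lay below. The change of −0.52 ± 0.31 was not called (adjusted p = 0.153, 95% interval −1.18 to 0.14). Without naive 1 it was −1.15 (adjusted p = 7.84e-05), so that shallow library decided the call. With dose neither gene was called, at −0.23 ± 0.10 for Stat5a (adjusted p = 0.24) and 0.06 ± 0.12 for Stat5b (adjusted p = 0.87).

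The Stat5a to Stat5b ratio did move with dose, with a slope of −0.30 (permutation p = 0.0235, adjusted p = 0.0235). It was −0.52 ± 0.44 at 0.01 µM, −1.29 ± 0.40 at 0.1 µM, −1.47 ± 0.48 at 1.0 and −1.44 ± 0.27 at 10 µM. The 0.01 and 0.1 µM ranges overlapped. Within the runs it was −0.15 for 10 against 0.1 µM (exact permutation p = 0.6) and −0.95 for 1.0 against 0.01 µM (exact permutation p = 0.1). P13.9 cells express both genes at a ratio of −0.11 ± 0.81, and with their share subtracted the slope was −0.25 (permutation p = 0.0817). It also missed the threshold without 0.01 µM A (−0.24, permutation p = 0.0704) and without 0.01 µM B (−0.23, permutation p = 0.0752).

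Counted over the members, 2 of the 7 tested rose on activation (Il2ra and Il2rb), 2 fell (Jak1 and Stat5a) and 3 were not called. Over all 7264 genes, 29% were called higher and 34.3% lower, so the members' shares lie close to the background. Their median log2 change was 0.14, beside −0.02 over all genes. No member was called between 10 and 1.0 µM, where 0.0826% of genes were called, or between 1.0 and 0.1 µM, where limma called 0% (110 genes at an unadjusted p below 0.05, and 0 genes by edgeR or DESeq2).

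**Figure D3:**
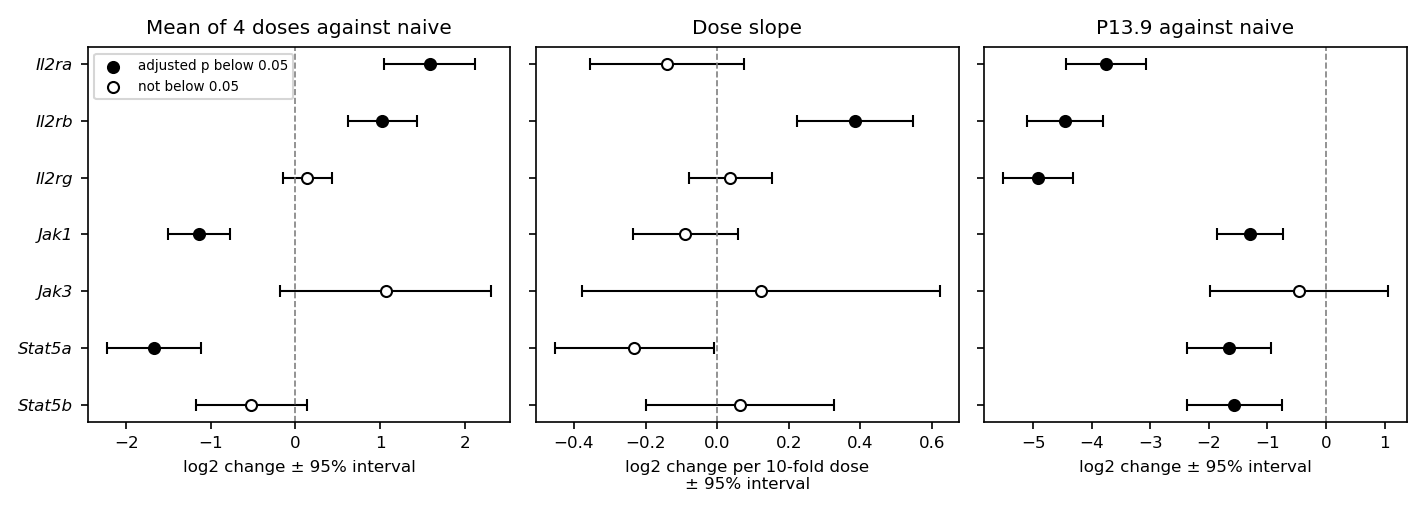
Log2 changes of the 7 members tested with their 95% intervals from limma (horizontal axes), for the mean of the 4 doses against naive cells, per 10-fold dose, and for P13.9 against naive cells. Filled points had an adjusted p below 0.05; with dose only Il2rb (0.38) is filled, and on activation Il2ra (1.59) and Il2rb (1.03) lie right of 0 while Jak1 (−1.14) and Stat5a (−1.68) lie left of it.

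The receptor chains were near 0 in P13.9 cells, while Jak1, Stat5a and Stat5b were well detected there. Il2ra had 1.53, 0.669 and 0.442 in P13.9 cells, Il2rb had 0.767, 4.01 and 2.21, and Il2rg had 0, 2.01 and 0.884, from 4, 12 and 5 reads. Every one of these values was below every T cell value of the same gene. Jak3 had 0, 0.669 and 2.21, from 6 reads, below every library at 0.1, 1.0 and 10 µM but overlapping the naive and 0.01 µM ranges. Jak1 averaged 62.5 ± 25.4 in P13.9 cells, Stat5a 9.96 ± 3.45 and Stat5b 10.7 ± 3.20. Jak1 and Stat5a thus had P13.9 levels within reach of the activated T cell levels. Every Stat5b value in P13.9 cells lay below every T cell value, but narrowly. The highest was 13.0, against 13.1 in naive 1, from 2 reads. Against naive cells, 6 of the 7 members tested were lower in P13.9, all but Jak3, where 29.1% of 8179 genes were called lower. The receptor chains fell by 3.75 (Il2ra), 4.46 (Il2rb) and 4.91 (Il2rg), and Jak1, Stat5a and Stat5b fell by 1.29, 1.65 and 1.56 (limma, adjusted p at most 0.00203).

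Multiplied by the P13.9 share, these levels give the part of each activated value that P13.9 transcripts could hold. The share is uncertain, given its naive value and the spread over genes stated above. At 0.01 µM that part was 0.351% of the measured Il2ra, 1.06% of Il2rb and 0.624% of Il2rg. For the signalling genes it was 29.6% of Jak1, 25.8% of Stat5a, 18.9% of Stat5b and 11.8% of Jak3. At 10 µM it was at most 2.13% for any of these 7 genes, the highest being Stat5a. Jak1 and Stat5a still fell against naive cells after subtraction (log2 changes −1.15 and −1.66, adjusted p = 0.000769 and 0.000149).

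**Figure D4:**
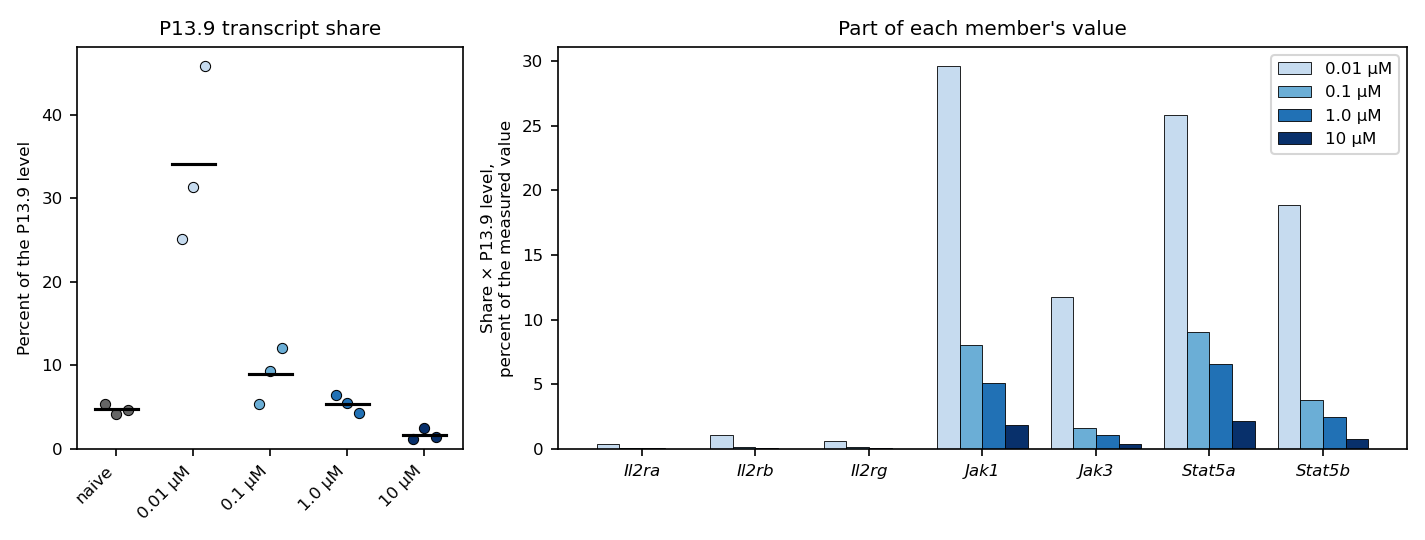
Left, P13.9 transcripts in each T cell library as percent of their P13.9 level, from 5 fibroblast genes, with lines at the means (4.75% in naive cells). Right, the part of each member's mean value that this share times its P13.9 level makes up, in percent, at the 4 doses in µM; at 0.01 µM it is 29.6% for Jak1 and 0.351% for Il2ra.

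Genes around the members were read from 4 lists. Of the other common gamma chain receptor chains and cytokines, 8 of 10 were in the table and 4 were tested. Il7r, the interleukin-7 receptor chain of resting T cells, averaged 7.04, 9.51, 8.74 and 6.07 from the lowest to the highest dose, and 27.8 ± 7.07 in naive cells. It fell by 1.73 ± 0.28 (limma, adjusted p = 6.8e-05). Il21r, the interleukin-21 receptor, fell by 1.07 (adjusted p = 0.00361), and Il4ra and Crlf2 were not called (−0.61 and 0.32). The list's median was −0.84 on activation, beside −0.02 over all genes, with 0 higher and 2 lower. Over all genes, 29% were called higher and 34.3% lower. None of the 4 was called by the slope with dose, and the smallest adjusted p was 0.112, for Il4ra (−0.33 per 10-fold dose).

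Of the 7 other JAK and STAT genes, 5 were tested. On activation Stat3, which serves interleukins 6 and 21, fell by 1.08 (adjusted p = 0.000161), Jak2 fell by 1.16 (adjusted p = 0.00567) and Tyk2 rose by 1.83 (adjusted p = 0.00634). Naive Tyk2 averaged 2.89 from only 4 reads, with values from 0 to 8.66, beside dose group means of 4.83 to 8.28. With dose, Jak2 was not called by its slope (−0.44 ± 0.13, adjusted p = 0.0568), but it was 1.45 lower on the log2 scale at 10 than at 0.01 µM (adjusted p = 0.0406), where 6.25% of genes were called lower. Its means were 4.71 ± 1.37 at 10 µM and 14.4 ± 1.99 at 0.01 µM. Stat3 (−0.09) and Tyk2 (0.20) were not called with dose (adjusted p = 0.631 and 0.695).

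Of 21 genes known as targets of interleukin-2 and STAT5, 4 rose, 7 fell and 10 were not called on activation. Over all genes, 29% were called higher and 34.3% lower, so these counts are not read as particular to the list. The 4 that rose were Tnfrsf4 (OX40, 2.0, adjusted p = 0.000267), Ccnd3 (cyclin D3, 1.76, adjusted p = 5.7e-06), Bcl2l1 (Bcl-xL, 0.73, adjusted p = 0.0336) and Nfil3 (0.61, adjusted p = 0.0482). The last pair did not stand above naive cells at every dose. Nfil3 averaged 11.3 at 0.01 µM and 15.9 at 10 µM, against 14.95 in naive cells. Bcl2l1 averaged 8.72 at 0.1 µM, against 8.83 in naive and 13.6 in P13.9 cells. The largest falls among the 21 genes were Ikzf2 (−4.47, adjusted p = 4.5e-08), Bcl6 (−2.98) and Socs3 (−2.06). Mcl1, a survival factor, fell by 1.95 (adjusted p = 5.3e-08). The median of the 21 genes was −0.12, beside −0.02 over all genes. By the slope with dose only Socs3, a feedback inhibitor of cytokine receptors, was called, where 5.13% of all genes were called lower. Ccnd3 was 0.97 higher at 10 than at 0.01 µM (limma, adjusted p = 0.0434), where 1.9% were called higher. Its means were 133 at 10 µM, 67.5 at 0.01 µM and 32.2 in P13.9 cells, and the part of their share in this rise was not tested. Socs3 averaged 8.80, 6.09, 3.05 and 1.48 from the lowest to the highest dose (slope −0.67 ± 0.14, adjusted p = 0.0107) and 10.8 ± 0.675 in P13.9 cells, whose share fell along the same doses, and the part of that share in the slope was not tested. Ccnd3 (0.27), Gzmb (0.42) and Mcl1 (−0.21) had the next smallest adjusted p for the slope (0.0608 to 0.164).

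Among 15 adaptors and regulators of cytokine receptor signalling, 12 were tested, and 1 rose, 4 fell and 7 were not called on activation. The shares over all genes were 29% higher and 34.3% lower, as above. Pik3r1, the regulatory subunit of PI3 kinase, fell by 2.46 (adjusted p = 6.1e-05). Stam2, an adaptor of receptor sorting, was at 0 in all naive libraries, and averaged 7.95 at 0.01 µM and 3.88 to 4.83 at the higher doses. A count of 0 allows a naive level of up to 4.24 (exact 95% interval, counting error only), above the 1.0 µM mean of 3.88. Stam2 was called higher (limma, adjusted p = 1.7e-06), but its level was also 12 in P13.9 cells. With dose Ptpn11, the phosphatase SHP-2, fell by 0.29 ± 0.07 per 10-fold dose (adjusted p = 0.0273), where 5.13% of all genes were called lower. Its means were 17.9 at 0.01 µM and 9.78 at 10 µM. It averaged 22.4 ± 7.44 in P13.9 cells, and the part of their share in this slope was not tested. Pik3cd (0.17) and Ptpn6 (0.43), the phosphatase SHP-1, were not called (adjusted p = 0.228 and 0.307).

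Genes with a profile most like that of a receptor chain were found by Pearson correlation of log2(value + 1) over the 18 libraries, taken from the 1461 genes whose mean reached 20. For Il2ra they were Limd2 (0.974), Thy1 (0.969) and Ifi27l2a (0.962). For Il2rb they were Lcp1 (0.984), Myo1g (0.978) and Tbc1d10c (0.977). For Il2rg they were Laptm5 (0.987), Trac (0.984) and Trbc2 (0.984), the last pair being constant regions of the T cell receptor. For Il2 the highest values were lower, at 0.716 for Stt3a, 0.623 for Hspe1 and 0.619 for Rps15-ps2. The libraries share the contrast of T cells with P13.9 cells, where the receptor chains are near 0, and the coefficients are given as a description only.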

How the data were processed

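RNA was extracted with TRIzol, made into QuantSeq 3′ libraries and sequenced on a NextSeq instrument, per the labels' protocols. Per the submitters' processing notes, the tools included STAR 2.6.1d, HTSeq 0.9.1 and DESeq2 (quality control with FastQC 0.11.8), and the build was mm10. Annotation and strand setting: not given in the sources used here. Each deposited value is a normalized signal, which the authors made by dividing counts by size factors. Steps in the values gave back whole reads for 99.999649% of 284544 values, within 1e-05 reads. Of 15808 features, 110 had no name and were left out. These held 12.4% to 15.6% of reads in naive libraries and 1.94% to 5.36% elsewhere.

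The main test was limma 3.58.1 (R 4.3.3), lmFit and eBayes with a trend, on log2(value + 1). Adding 1 shrinks changes of low genes, while naive libraries at 0 can enlarge a rise over naive cells. Jak3 on activation was 1.07 in this fit and 0.25 with a pseudocount of 5. Its naive mean of 4.37 lay above its means at 0.01 µM (2.77) and 10 µM (4.07). A gene was kept where 3 or more of the 15 T cell libraries reached a value of 5, and all 5 T cell groups shared 1 spread. The contrast of P13.9 and naive cells came from all 18 libraries together. Adjustment was by Benjamini-Hochberg over all genes kept. Ratios of members were tested by permutation. The exact intervals of read ratios cover counting error only.

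The members and lists were chosen with earlier results of these data known. Named genes are the members, from each list the 4 genes of smallest adjusted p for the slope and the 2 for activation, list genes that opposed their list, and the 3 genes most like Il2ra, Il2rb, Il2rg and Il2. Bcl6 is named outside this rule, after its values were seen. The columns of naive and P13.9 libraries carry numbers and those of the dose groups letters. Same-letter libraries did not deviate together: 3 of 18 pairs of deviations correlated above 0.1 (median −0.03), against 11 of 36 pairs of different letters (median 0.03). Alternatives were edgeR 4.0.16 and DESeq2 1.42.0 on recovered reads, a pseudocount of 5, no filter, array weights, a letter block, subtraction of the P13.9 share, the 12 activated libraries alone, and leaving out each library. Il7, Il15, Klrb1c and Ncr1 were not analysed here. Some results of the lists are not reported here.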

Additional observations from a re-analysis of the deposited data

How the results depend on the processing

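Il2ra, Il2rb, Jak1 and Stat5a were called on activation under all 7 alternatives and without any single library, and the 6 calls of P13.9 against naive cells were kept under all 6. Of 483 member values under the alternatives, 445 kept direction and side of the threshold, 16 passed it, 5 lost it and 17 were uncalled values that changed sign. Jak3 on activation was called with array weights only (1.80, adjusted p = 0.0343). Array weights also called the slopes of Il2ra (adjusted p = 0.00384), Jak1 (0.00996) and Stat5a (0.00425), and DESeq2 that of Il2ra (0.038). Il2rb at 0.1 against 0.01 µM was lost with the letters as a replicate block (adjusted p = 0.0625) and without 5 of the 6 libraries (0.0534 to 0.125). At 1.0 against 0.01 µM it was lost without 0.01 µM C (0.0606). Its slope was kept without any single library (adjusted p = 0.00339 to 0.0459). The Stat5a to Stat5b slope was −0.250 after subtraction and −0.358 to −0.228 with 1 library left out. The cause of these changes was not tested.

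Counts of all genes called moved more. Without a filter, which tests more genes, activation gave 7072 against 4603 in the main limma test, and the slope 725 against 474. The slope gave 2207 with edgeR, 1976 with DESeq2, 2941 with array weights, 1680 in the 12 libraries, 314 with the replicate block and 156 to 506 with 1 library left out. At 10 against 0.01 µM (592 in that test) these were 2605, 2330, 3334 and 1954, and 199 to 387 with 1 left out. At 1.0 against 0.01 µM (312) they were 1658, 1436, 2060 and 1374, then 164 with the block and 72 to 203. At 0.1 against 0.01 µM (406) they were 1763, 1543, 2340 and 1661, then 189 and 47 to 222. At 10 against 0.1 µM (7) they were 105, 119, 274 and 81, then 4 and 1 to 5. At 10 against 1.0 µM (6) they were 176, 181, 145 and 86, and 2 to 4 with 1 left out. The slope's split of 101 higher and 373 lower became 1124 and 1083 with edgeR, 1050 and 926 with DESeq2 and 272 and 185 after subtraction. At 10 against 0.01 µM the split of 138 and 454 became 1312 and 1293 with edgeR, 1248 and 1082 with DESeq2 and 355 and 282 after subtraction. At 1.0 against 0.01 µM 119 and 193 became 906 and 752, 808 and 628, and 280 and 124, and at 0.1 against 0.01 µM 158 and 248 became 917 and 846, 872 and 671, and 335 and 205. No pairing by letter was seen, as 1 of 12 libraries correlated best with its own letter. Whether samples of a letter share a mouse or culture is not stated. Depth limits Il2, Il21 and Jak3, and every naive value.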
